A study of Mus musculus with 13 samples.

Results

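Compact-like ventricular cardiomyocytes were taken from the heart libraries as cells that held ventricular transcripts, little Nppa and at least 1 transcript of Hey2. The rule kept barcodes of at least 2000 unique molecular identifiers (UMIs, each a captured transcript), 500 genes and 1% mitochondrial UMIs. On the scale of counts per 1000000 UMIs (CPM) of a cell, it then required Tnnt2, a troponin of heart muscle, at 1500 or more, Myl2, the ventricular myosin light chain, at 1000 or more, and Nppa, the natriuretic peptide of atrial and trabecular muscle, below 300. At least 1 UMI of Hey2 was also required. Of 41586 heart barcodes over the UMI and gene limits, 8610 passed. They numbered 556 and 780 in the 2 libraries of E12.5 hearts, 1397 and 1063 in those of E14.5 hearts, and 1956 and 1560 in those of E16.5 hearts. At postnatal day 3 (P3) they numbered 646 and 652 in well 1 and well 2, the names used here for the 2 barcode suffixes of the matrix. All animals were untreated wild-type C57Bl/6J mice, so the groups differ by stage, and each library holds the cells of whole dissected hearts. The 2 records of P3 share 1 matrix, no source ties a well to a record, and P3 was taken as 1 sample that enters no test. For E16.5 replicate 1, 2 records were merged into its matrix. No source states if libraries of the same stage had different animals, so p-values measure only the spread between these libraries.

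The wall of the embryonic ventricle is built of an outer compact layer and an inner network of trabeculae. Compact myocardium divides faster, thickens the wall and carries Hey2, a repressor downstream of Notch that keeps trabecular and atrial genes low, whereas trabecular muscle carries Nppa and connexin 40 and contributes to the ventricular conduction system. Around birth, heart muscle moves from carbohydrate towards fatty acids as fuel, exchanges fetal for adult contractile proteins and leaves the cell cycle.

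The 8 sets of cells summed to between 6891224 and 41458286 UMIs, and the median cell held between 10208 and 27156 UMIs. The 2 libraries of a stage correlated at 0.992 to 0.994 across genes on the log scale, and no library stood apart. Mitochondrial UMIs took a median of 5.97 and 6.33% of a cell at E12.5, then 10.7 and 10.9% by E16.5 and 23.6 and 23.9% at P3. The study kept cells under stage ceilings of mitochondrial UMIs, and 13.3 to 27.7% of the embryonic cells and 79.7 and 79.8% of the P3 cells used here lay over them. Barcodes shared between any 2 of the 8 sets numbered at most 6.

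Hey2 (chromosome 10, 30832359 to 30842801, GRCm38) chose the cells, and its level is a description. Its CPM in the summed cells was 87.1 and 97.6 at E12.5, 116 and 124 by E14.5, then 114 and 121 by E16.5 and finally 73.9 and 134 at P3. Each cell had to hold 1 Hey2 UMI, so the lowest CPM a cell could have was higher in shallower cells. The median cell held 18751 UMIs in P3 well 1 and 10208 in well 2, so these levels do not rank the sets by Hey2. Cells with exactly 1 Hey2 UMI, at the edge of the rule, numbered 206 and 275 at E12.5, 543 and 456 by E14.5, then 661 and 705 by E16.5 and finally 453 and 461 at P3. At the Nppa limit, 33 to 65 cells of each embryonic library lay just inside, at 200 to 300 CPM, and 19 to 35 of the cells that met the other limits lay just outside, at 300 to 400 CPM. In the P3 wells 204 and 104 cells lay just inside and 106 and 47 just outside.

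Tnnt1 and Kcne1 are the markers that the rule did not use. Tnnt1 was higher in compact-like cells than in ventricular cells of high Nppa (1000 CPM or more) at each embryonic stage. Kcne1 was well above the high-Nppa level at E12.5 and E14.5 but close to it at E16.5. Neither marker was higher at P3. Tnnt1 encodes the troponin T of slow skeletal muscle (chromosome 7, 4504570 to 4516382). Its CPM was 829 and 746 at E12.5, 1342 and 1372 by E14.5, then 139 and 136 by E16.5 and finally 54.2 and 48.8 at P3. The level was 3.83 and 3.90 times that of high-Nppa cells at E12.5, 4.37 and 5.81 times by E14.5, then 2.49 and 1.87 times by E16.5 and finally 0.886 and 0.545 times at P3. Kcne1 encodes a small subunit that slows the opening of the Kcnq1 potassium channel (chromosome 16, 92345982 to 92359468). Its CPM was 119 and 105 at E12.5, 190 and 192 by E14.5, then 216 and 207 by E16.5 and finally 267 and 320 at P3. Against high-Nppa cells it was 2.46 and 2.79 times as high at E12.5, 1.86 and 1.60 times by E14.5, then 1.10 and 1.22 times by E16.5 and finally 0.991 and 0.839 times at P3. The P3 cells therefore carry the name only through the rule, and they are called low-Nppa, Hey2-positive ventricular cells below.

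In ventricular cells of low Nppa without a Hey2 UMI, the mean Tnnt1 level was 623 CPM at E12.5 and 126 CPM at E16.5, beside 788 and 138 CPM in compact-like cells. Their mean Kcne1 level was 152 CPM at E12.5 and 192 CPM at E16.5, beside 112 and 211 CPM. In each embryonic library they were also shallower, most so at E14.5 replicate 2, with 8902 UMIs in the median cell against 17093, and least at E12.5 replicate 1, with 23644 against 27156. At P3 the medians were close, at 18159 against 18751 UMIs in well 1 and 10107 against 10208 in well 2.

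The share of ventricular cells (over the Tnnt2 and Myl2 limits) that passed the whole rule was higher at E16.5 than at E12.5. E12.5 hearts gave 37.6 and 39.0%, E14.5 hearts 54.5 and 48.3%, E16.5 hearts 60.6 and 50.4%, and the P3 wells 18.2 and 27.4%. The embryonic libraries of E12.5 lay below the other 4, and the P3 wells lowest. The place of P3 changed without the Hey2 limit in well 2 and not in well 1. With Hey2 not required, E12.5 hearts gave 61.2 and 62.2%, E14.5 hearts 83.1 and 81.6%, and E16.5 hearts 85.2 and 84.6%. P3 wells 1 and 2 then gave 54.2 and 80.2%, so that well 2 lay above E12.5 and well 1 stayed lowest. When each cell was thinned to 2000 UMIs before the rule was applied, the share was 6.56 and 6.95% at E12.5, 12.2 and 12.4% by E14.5, then 12.6 and 12.7% by E16.5 and finally 2.00 and 5.80% at P3. An exact permutation test of 2 libraries against 2 cannot reach 0.05, and the shares were not tested. Exact 95% binomial intervals, which cover counting error only, spanned 35.1 to 40.1% in E12.5 replicate 1 and 58.9 to 62.3% in E16.5 replicate 1.

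The limit on Hey2 depends on how deeply a cell was read. A Hey2 UMI was seen in 56.0 and 55.9% of ventricular cells at E12.5, 63.1 and 56.3% by E14.5, then 68.0 and 56.6% by E16.5 and finally 31.1 and 32.8% at P3. After thinning these shares were 9.59 and 10.49%, 14.3 and 14.7%, 14.3 and 15%, and 4.68 and 8.41%. High-Nppa cells held one in 35.4 to 48.6% of cells in the embryo, against 59.2 to 71.2% of all low-Nppa cells. Atrial-like cells (Myl2 below 1000 CPM, Myl7 at 5000 CPM or more, at least 1 Sln UMI), which should lack Hey2, held a Hey2 UMI in 0.766 to 3.82% of cells across the 8 sets, at a median depth of 11173 to 23792 UMIs.

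**Figure D1:**
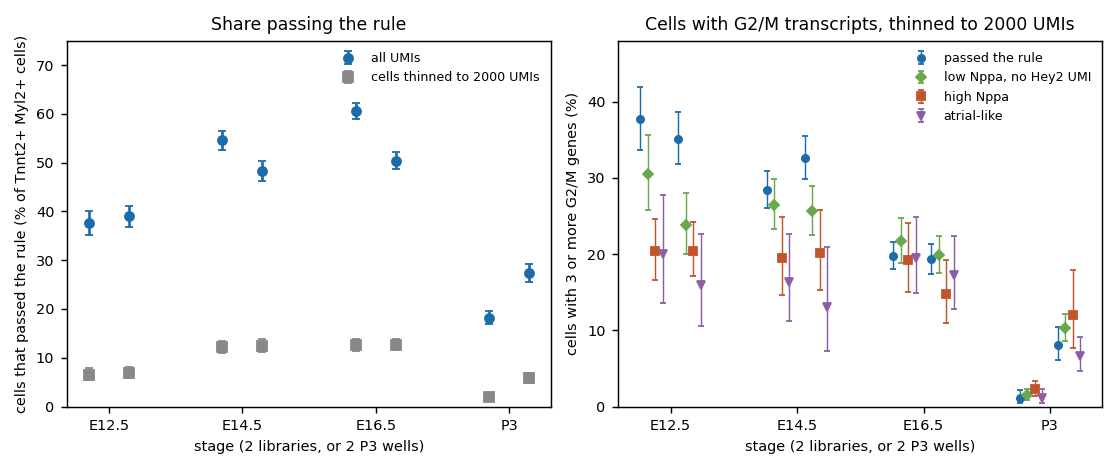
Left, share of Tnnt2 and Myl2 positive cells that passed the compact-like rule (percent, y axis) in each library or P3 well (x axis, by stage), with all UMIs (circles) and with cells thinned to 2000 UMIs (squares). Right, share of cells with 3 or more of 16 G2/M genes after thinning (percent) in cells that passed the rule, low-Nppa without a Hey2 UMI, high-Nppa and atrial-like cells. Bars are exact 95% binomial intervals. With all UMIs, the share that passed the rule was above 48% in the E14.5 and E16.5 libraries and below 40% at E12.5 and P3. On the right, where cells were chosen before thinning, the share of cells with these transcripts was highest in compact-like cells at E12.5.

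The first question the stages answer is how the transcriptome of compact-like cells changed from E12.5 to E16.5. Counts were summed per library and tested with edgeR's quasi-likelihood test over 13033 genes, with p-values adjusted over all of them, and log2 fold changes are given with their standard error. Between E12.5 and E16.5, 3895 genes rose (29.9% of those tested) and 3652 fell (28%). At least 2-fold, 1059 rose (8.13%) and 1020 fell (7.83%). From E12.5 to E14.5, 2280 genes rose (17.5%) and 1928 fell (14.8%), and from E14.5 to E16.5, 2666 rose (20.5%) and 2517 fell (19.3%). Over both steps 983 genes rose in each, 801 fell in each, 269 rose and then fell, and 164 fell and then rose. Without E14.5 replicate 1 the 2 steps gave 2627 and 3389 calls in place of 4208 and 5183.

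Ckm and Cox8b were among the genes with the largest rises. Ckm, the creatine kinase of muscle (chromosome 7, 19404776 to 19422841), stood at 55.3 and 52.5 CPM at E12.5, 656 and 706 by E14.5, then 2534 and 2765 by E16.5 and finally 2722 and 2158 at P3. It rose by 5.81 ± 0.10 on the log2 scale (adjusted p = 1.5e-18), and no 2 embryonic stages overlapped. Cox8b, a muscle form of a subunit of cytochrome c oxidase (chromosome 7, 140898945 to 140900446), stood at 29.8 and 47.9 CPM at E12.5, 155 and 162 by E14.5, then 990 and 1017 by E16.5 and finally 1310 and 2175 at P3. Its log2 fold change was 4.87 ± 0.14 (adjusted p = 1.6e-15). Mb, the oxygen store myoglobin, went from 198 and 156 CPM at E12.5 to 931 and 922 by E14.5, then 1412 and 1433 by E16.5 and finally 4111 and 4930 at P3, a rise of 3.19 ± 0.11 to E16.5. Ckmt2, the mitochondrial creatine kinase of muscle, went from 1.08 and 0.986 CPM at E12.5 to 29.6 and 31.8 at E16.5 and 158 and 131 at P3.

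Other leading genes that rose included Ptgds, an enzyme of prostaglandin D2 synthesis, from 0.892 and 0.939 CPM at E12.5 to 65.3 and 67.6 by E14.5 and 378 and 361 by E16.5 (log2 fold change 8.84 ± 0.13). Casq2, the calcium-binding protein of the cardiac sarcoplasmic reticulum, rose from 22.6 and 26.0 CPM at E12.5 to 127 and 146 by E14.5 and 363 and 359 by E16.5. Acsl1, which activates fatty acids, rose from 11.8 and 11.7 to 88.5 and 88.5 CPM between E12.5 and E16.5. The small heat shock protein Hspb6 rose from 19.9 and 17.3 to 136 and 143 CPM, Smim5 from 8.47 and 9.48 to 63.9 and 65.6 CPM, and Gm11716 from 2.93 and 2.44 to 78.2 and 70.6 CPM. Mgp, an inhibitor of calcification, passed the test in the later step, from 28.6 and 17.7 CPM at E14.5 to 87.5 and 81.7 at E16.5. Up to 57.8% of its level in a library lay within what free RNA could account for, a bound taken from the globin UMIs of the cells.

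Among the genes with the largest falls were a collagen, 2 genes of fetal growth and the atrial light chain. Col2a1, the fibrillar collagen of cartilage, stood at 79.5 and 89.7 CPM at E12.5, 24.7 and 24.1 by E14.5, then 0.579 and 0.189 by E16.5 (log2 fold change -7.43 ± 0.16). Hmga2, a chromatin protein of fetal cells, fell from 62.4 and 64.4 to 4.20 and 4.07 CPM, and Mdk, the growth factor midkine, from 595 and 533 to 40.3 and 42.5 CPM. Myl7, the atrial myosin light chain (chromosome 11, 5896637 to 5898782), stood at 5638 and 5356 CPM at E12.5, 2283 and 2271 by E14.5, then 596 and 564 by E16.5 and finally 170 and 182 at P3. It fell at both steps, by 1.28 ± 0.08 and 1.77 ± 0.08 on the log2 scale, and free RNA could account for up to 55.9% of its level in a library. The homeobox gene Prrx2 fell from 123 and 124 to 14.2 and 13.7 CPM, Gpx3, a secreted glutathione peroxidase, from 556 and 587 to 85.8 and 89.3 CPM, and Rcn3 from 62.9 and 59.6 to 9.02 and 7.96 CPM, of which free RNA could account for up to 80.8% in a library.

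Some genes changed mostly in 1 step, and others changed direction between the steps. Tnnt1 rose by 0.77 ± 0.08 from E12.5 to E14.5 and fell by 3.10 ± 0.09 from E14.5 to E16.5 (adjusted p = 1.1e-14). Ucp2, an uncoupling protein of the mitochondrial membrane, stood at 56.3 and 66.5 CPM at E12.5, 58.9 and 55.8 by E14.5, then 8.44 and 9.81 by E16.5 and finally 105 and 96.1 at P3, so that its lowest libraries were those of E16.5. Tnni2, the troponin I of fast skeletal muscle, fell mostly in the later step, with 79.5 and 72.1 CPM by E14.5 and 17.2 and 21.0 by E16.5. Myl1, a light chain of fast skeletal muscle, fell in the earlier step, from 184 and 171 to 36.8 and 34.0 CPM, and rose by 0.25 on the log2 scale in the later step (adjusted p = 0.016, edgeR). Free RNA could account for up to 84.3% of its level in a library. Cited1, a transcriptional coactivator found in trabecular muscle, fell from 448 and 373 to 173 and 173 CPM and then rose to 238 and 241 CPM at E16.5. Emilin2 fell from 56.3 and 62.4 to 25.7 and 26.8 CPM in the earlier step, whereas Gas6, the ligand of Axl family receptors, rose from 28.3 and 30.8 to 112 and 115 CPM.

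**Figure D2:**
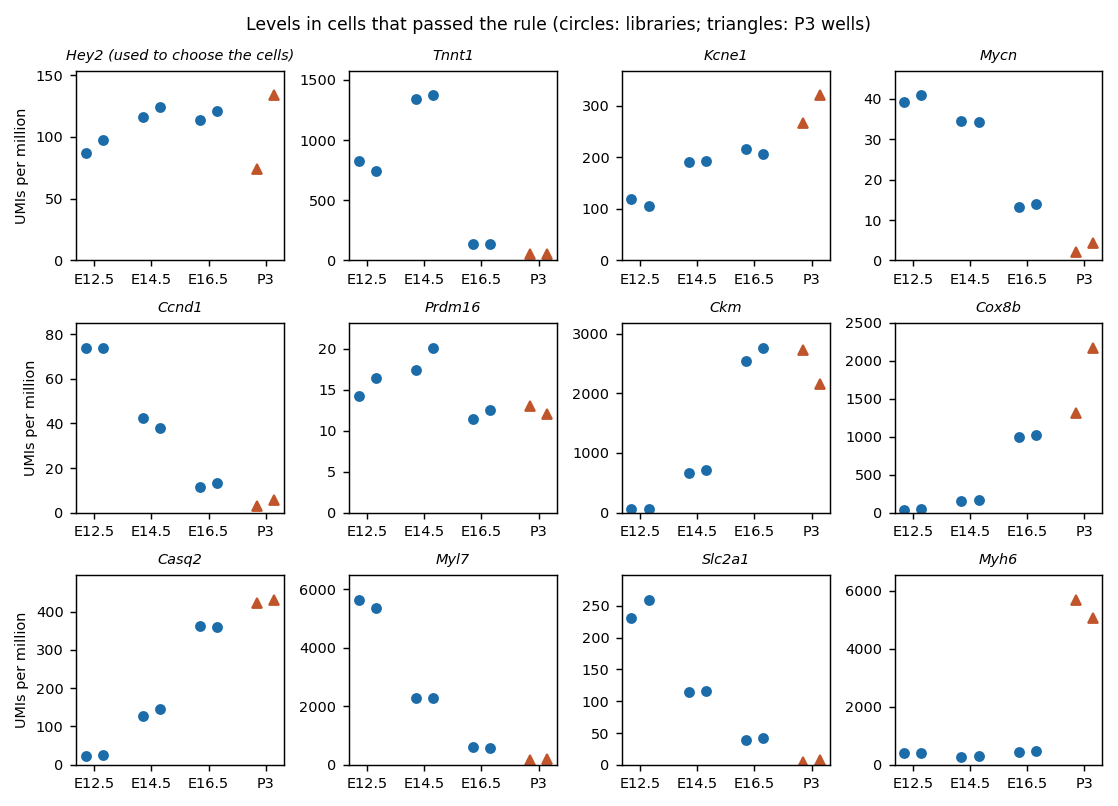
Levels of 12 genes in the summed cells that passed the rule (CPM, y axes starting at 0) by stage (x axes). Circles are the 2 libraries of a stage and triangles are the P3 wells. Ckm, Cox8b and Casq2 were higher at each later embryonic stage, Myl7, Slc2a1 and Ccnd1 were lower at each later embryonic stage, Tnnt1 was highest at E14.5, and Myh6 stood above 5000 at P3 and below 500 before.

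The sequences just upstream of the RefSeq starts of 3 of these genes are shown. Ckm and Cox8b were among the leading genes that rose, and Tnnt1 is a marker that the rule did not use. Each line gives the 250 bases before the RefSeq start (GRCm38.p6), 5′ to 3′ on the strand of the gene, and capitals mark the motifs searched for on both strands. The window of Ckm is chr7:19410844-19411093 on the plus strand. Those of Cox8b and Tnnt1 are chr7:140900447-140900696 and chr7:4515976-4516225 on the minus strand. The windows of Ckm and Tnnt1 lie inside the GENCODE gene spans given above, which begin further upstream than the RefSeq starts. The window of Cox8b lies outside its span.

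Ckm: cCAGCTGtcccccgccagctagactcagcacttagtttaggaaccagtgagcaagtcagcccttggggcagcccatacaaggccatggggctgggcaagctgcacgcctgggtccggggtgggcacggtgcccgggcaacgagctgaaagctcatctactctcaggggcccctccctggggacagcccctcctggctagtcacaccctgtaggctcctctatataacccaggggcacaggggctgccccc
Cox8b: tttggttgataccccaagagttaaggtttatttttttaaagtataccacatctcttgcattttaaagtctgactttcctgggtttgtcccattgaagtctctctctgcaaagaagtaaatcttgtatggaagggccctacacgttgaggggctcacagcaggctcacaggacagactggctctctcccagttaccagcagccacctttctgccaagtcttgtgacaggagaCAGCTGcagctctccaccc
Tnnt1: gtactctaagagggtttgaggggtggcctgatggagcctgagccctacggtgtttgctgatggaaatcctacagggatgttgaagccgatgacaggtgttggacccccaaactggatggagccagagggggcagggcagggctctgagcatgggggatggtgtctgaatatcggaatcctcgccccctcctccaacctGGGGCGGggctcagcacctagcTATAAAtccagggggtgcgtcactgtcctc

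Motifs searched for were the E-box CAGCTG of muscle regulators, the TATA box TATAAA, the GC box GGGGCGG and AAGGTCA, a motif of nuclear receptors. Among all 27025 RefSeq promoters of this length, 12.8% held CAGCTG, 13% TATAAA, 21.2% GGGGCGG and 4.05% AAGGTCA. The windows of Ckm and Cox8b each held CAGCTG, and that of Tnnt1 held TATAAA and GGGGCGG. Of the 8 leading genes that rose and had a RefSeq promoter, 3 held CAGCTG and 0 held AAGGTCA, and of the 7 that fell, 2 held CAGCTG and 4 GGGGCGG. A match is a run of letters and not a measured site.

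Nearly all genes of fatty acid use and of the respiratory chain rose. For every list count from E12.5 to E16.5 given from here on, the shares over all genes tested are 29.9% higher and 28% lower. Of 30 tested genes of fatty acid use, 28 rose and 0 fell from E12.5 to E16.5, with a median log2 fold change of 1.01 beside 0.02 over all genes. Fabp3, the fatty acid carrier of heart muscle, stood at 627 and 561 CPM at E12.5, 1159 and 1209 by E14.5, then 2053 and 2066 by E16.5 and finally 7579 and 6737 at P3. Cd36, which takes up fatty acids, stood at 16 and 18.9, 36.8 and 35.9, 78.3 and 78.8, and 406 and 541 CPM. Both rose at each embryonic step, and their P3 wells lay above all libraries. Ppara, the nuclear receptor that drives such genes, was low, at 0.573 and 0.751 CPM at E12.5 and 8.03 and 7.96 at E16.5. Cpt1b and Cpt2, of the carnitine shuttle, did not pass the test, with Cpt2 at 20.3 and 22.1 CPM at E12.5 and 20.8 and 20.6 at E16.5, and Cpt1b at most 1.60 CPM in any set. All 34 nuclear genes of the respiratory chain rose (median 0.74). By step, 7 rose by E14.5 (median 0.12), near the share of all genes tested that rose in that step (17.5%). From E14.5 to E16.5 all 34 rose (median 0.62), beside 20.5% of all genes. Cox7a1, another muscle form of a cytochrome c oxidase subunit, went from 263 and 349 CPM at E12.5 to 1178 and 1214 at E16.5, Cox6a2 from 848 and 911 to 2688 and 2642, and Ndufa1 of complex I from 309 and 388 to 774 and 804.

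Genes of glycolysis and glucose transport moved in both directions. Of 23, 9 rose and 7 fell (median 0.02), near the shares over all genes tested (29.9 and 28%, median 0.02). The genes given here were picked from both directions. Slc2a1, the fetal glucose transporter (chromosome 4, 119108711 to 119137983), stood at 231 and 260 CPM at E12.5, 114 and 117 by E14.5, then 39.3 and 42.1 by E16.5 and finally 4.54 and 6.82 at P3. It fell by 2.41 ± 0.07 on the log2 scale (adjusted p = 5.3e-15). Slc2a4, the insulin-responsive transporter, rose from 8.54 and 9.91 to 23.0 and 24.0 CPM. The enolase of muscle, Eno3, rose from 186 and 180 to 445 and 477 CPM, while Eno1 fell from 702 and 686 to 425 and 513. Ldhb rose from 432 and 376 to 844 and 875 CPM, while Ldha fell from 2069 and 1965 to 1199 and 1296. Gapdh (7834 and 7194 CPM at E12.5, 5758 and 6016 at E16.5) and Aldoa (1876 and 1912, then 1603 and 1764) did not pass the test.

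Contractile genes rose more often than they fell. Of 34 sarcomere genes, 21 rose and 8 fell from E12.5 to E16.5 (median 0.35). By step, 10 rose and 11 fell by E14.5 (median 0.01), and 24 rose and 7 fell from E14.5 to E16.5 (median 0.38). Of all genes tested 29.9% rose and 28% fell from E12.5 to E16.5. The shares were 17.5 and 14.8% in the earlier step and 20.5 and 19.3% in the later. Those that fell were the atrial and fetal light chains Myl7 and Myl4, the skeletal forms Tnnt1, Acta1 and Myl1, the smooth muscle light chain Myl9 and the tropomyosins Tpm2 and Tpm4. Myl4 stood at 6024 and 5760 CPM at E12.5, 3889 and 3941 by E14.5, then 1491 and 1445 by E16.5 and finally 132 and 106 at P3. Acta1, skeletal actin, went from 359 and 434 to 79.6 and 70.8 CPM between E12.5 and E16.5. Myom2, an M-band protein, rose from 0.446 and 0.282 to 27.9 and 30.9 CPM and reached 294 and 237 at P3. Tnni3, the adult cardiac troponin I, rose from 1817 and 1586 to 3736 and 3717 CPM, and Myh7, the slow myosin heavy chain, from 3027 and 3012 to 5144 and 5200. Actc1, cardiac actin, stayed between 10816 and 12799 CPM in the 6 libraries and did not pass the test.

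Genes of calcium release and uptake rose as well. Of 17, 14 rose and 3 fell (median 1.00). Ryr2, the calcium release channel, went from 104 and 111 CPM at E12.5 to 211 and 206 at E16.5 and 615 and 634 at P3, and Atp2a2, the calcium pump of the sarcoplasmic reticulum, from 591 and 644 to 1038 and 991 and to 2793 and 3817. Its inhibitor Pln went from 1036 and 1021 to 2480 and 2364 and to 5050 and 4675 CPM. Among those that fell were Casq1, the skeletal calsequestrin, from 120 and 120 to 31.0 and 32.2 CPM, and Fkbp1b. Sln, an atrial inhibitor of the pump, was counted as risen at 5.10 and 3.15 CPM against 9.21 and 10.49, levels that free RNA could account for in full.

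Of 22 genes of ion channels and connexins, 13 rose and 7 fell (median 0.54), and of 13 genes of the intercalated disc, 9 rose and 0 fell (median 0.56). Of all genes tested 29.9% rose and 28% fell, so the falls among ion channels and connexins were near that share. Kcnip2, a subunit of the channel of the transient outward current, went from 0.127 and 0.235 CPM at E12.5 to 1.65 and 1.80 by E14.5, then 16.8 and 19.3 by E16.5 and finally 52.8 and 48.3 at P3. Kcnj2, of the inward rectifier, went from 1.53 and 1.41 to 10.6 and 11.1 CPM by E16.5, and Kcnq1, the partner of Kcne1, from 7.20 and 6.95 to 23.1 and 22.8. Gja1, the main connexin of working ventricular muscle, stood at 111 and 122 CPM at E12.5, 198 and 192 by E14.5, then 253 and 251 by E16.5. Gja5, connexin 40 of conduction and atrial muscle, fell from 17 and 16 to 6.30 and 5.81 CPM.

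Most genes of the G1 and S phases and 9 of 16 genes of G2 and mitosis fell from E12.5 to E16.5. Of 23 genes of the G1 and S phases, 19 fell and 1, Cdk6, rose (median -0.65). Ccnd1, cyclin D1, stood at 74.0 and 74.1 CPM at E12.5, 42.5 and 37.9 by E14.5, then 11.6 and 13.4 by E16.5 and finally 2.76 and 5.66 at P3. Cdk4, its kinase, went from 431 and 410 CPM to 160 and 170 at E16.5. Of the 16 genes of G2 and mitosis 0 rose (median -0.27). Ube2c, which helps to degrade mitotic cyclins, fell from 434 and 353 to 226 and 205 CPM (log2 fold change -0.68 ± 0.10). Mki67 stood at 88.0 and 79.8 CPM at E12.5 and 65.4 and 66.9 at E16.5 and did not pass the test. The direction of this list was not kept in all settings. With cells holding markers of other cell types removed, which left 16 and 29 cells at E12.5, 4 rose and 0 fell, and with cells thinned to 2000 UMIs 0 rose and 1 fell. Of 10 inhibitors of the cycle, 7 rose and 1 fell. The one that fell, Cdkn1c, which is imprinted, stood at 745 and 745 CPM at E12.5, 237 and 236 by E14.5, then 67.0 and 70.3 by E16.5.

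Counted by cells, 37.8 and 35.1% of the cells that passed the rule at E12.5 held UMIs of 3 or more of the 16 G2/M genes after thinning to 2000 UMIs. The share was 28.4 and 32.6% at E14.5, then 19.8 and 19.3% by E16.5 and 1.08 and 8.13% at P3, so that no E16.5 library reached an earlier one. Under the mitochondrial ceilings of the study E16.5 hearts gave 20.7 and 20.1% and, in the 131 and 132 P3 cells left, 3.05% (95% interval 0.838 to 7.63) and 15.9% (10.1 to 23.3). Without these ceilings the E16.5 mean was 0.536 times that of E12.5, with pairs of libraries from 0.511 to 0.563 times. In high-Nppa cells the share was 20.4 and 20.5% at E12.5, 19.4 and 20.2% by E14.5, then 19.3 and 14.7% by E16.5. In low-Nppa cells without a Hey2 UMI it was 30.6 and 23.9%, 26.5 and 25.7%, and 21.7 and 19.9%. The cells of all these classes were chosen before thinning. With the rule applied after thinning, the 96 and 135 cells that passed at E12.5 gave 24.0 and 23.7%. Their 95% intervals were 15.8 to 33.7 and 16.8 to 31.8%. The other classes were not chosen after thinning, so whether the higher share of compact-like cells at E12.5 holds in that order was not tested. These shares were not tested, and calls for single cells were not used to count dividing cells.

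Fetal growth genes fell in 10 of 16 cases and rose in 2, Dlk1 and Sox4 (median -0.82). Igf2bp1, an RNA-binding protein of fetal tissue, stood at 85.6 and 89.5 CPM at E12.5, 48.1 and 51.8 by E14.5, then 21.8 and 22.4 by E16.5 and finally 5.43 and 5.08 at P3. Mest fell from 584 and 642 to 179 and 197 CPM. Igf2 (502 and 637 CPM at E12.5, 495 and 516 at E16.5) and H19 (1199 and 1397, then 1116 and 1152) did not pass the test between these stages. Beside the 29.9% that rose and 28% that fell of all genes, the next 3 lists moved in both directions. Of 20 genes of growth receptors and Notch signalling, 9 rose and 8 fell, among them Insr, the insulin receptor, from 21.7 and 24.9 to 47.0 and 42.6 CPM and Erbb2, a neuregulin receptor, from 38.4 and 42.1 to 23.9 and 24.3. Of 13 genes of RNA binding and splicing, 7 rose and 4 fell, with Rbm20, a splicing factor for titin, going from 36.0 and 40.0 to 77.2 and 80.1 CPM. Of 15 immediate early and heat shock genes, 9 rose and 4 fell, among them the heat shock gene Hspa1a, from 1.72 and 0.704 to 20.7 and 24.1 CPM.

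Of 23 cardiac transcription factors, 9 rose and 6 fell (median 0.04), beside 29.9% and 28% of all genes and a median of 0.02. Hopx went from 79.3 and 84.5 CPM at E12.5 to 209 and 211 at E16.5 and 547 and 502 at P3, and Mef2a from 74.7 and 82.7 to 192 and 185. Hand1, which marks the early left ventricle, stood at 30.9 and 30.4 CPM at E12.5, 8.75 and 8.78 by E14.5, then 4.73 and 5.81 by E16.5. Gata4 (67.2 to 88.2 CPM over the 6 libraries) and Hand2 (61.8 to 80.6 CPM) did not pass the test between E12.5 and E16.5. Nkx2-5 fell from 277 and 285 to 163 and 189 CPM.

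Of the other genes tied to the compact layer, Mycn, which sustains its growth, stood at 39.3 and 40.9 CPM at E12.5, 34.5 and 34.2 by E14.5, then 13.3 and 14 by E16.5 and finally 2.11 and 4.35 at P3. It fell by 1.37 ± 0.08 on the log2 scale from E12.5 to E16.5. With it fell Ccnd1, Ccnd2 and Tnnt1, while Kcne1 and Tbx20 rose, 4 lower and 2 higher of 7 tested (median -0.90). Prdm16 stood at 14.2 and 16.4 CPM at E12.5 and 11.5 and 12.6 at E16.5 and did not pass the test. Of 13 genes of trabecular and conduction muscle, 9 fell and 3, Nppb, Etv1 and Cacna1g, rose from E12.5 to E16.5 (median -0.77). In the step to E14.5, 9 fell and 2 rose (median -0.64), whereas in the later step 5 fell and 6 rose (median 0.16). Of all genes tested 14.8% fell and 17.5% rose in the earlier step, and 19.3% fell and 20.5% rose in the later. Id2, a repressor found in the conduction system, fell from 287 and 237 to 39.6 and 38.2 CPM, and Irx3 from 12.3 and 14.4 to 8.23 and 9.84. Hcn4, Tbx3 and Cacna2d2, which mark conduction cells, were at or below 14.9 CPM in all 8 sets. Of the other conduction markers of the study, Ephb3 fell from E12.5 to E16.5, whereas Cacna1g rose at both steps. Nppa, which chose the cells, stood at 72.8 and 77.2, 30.5 and 31.9, 40.5 and 39.6, and 156 and 107 CPM.

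**Figure D3:**
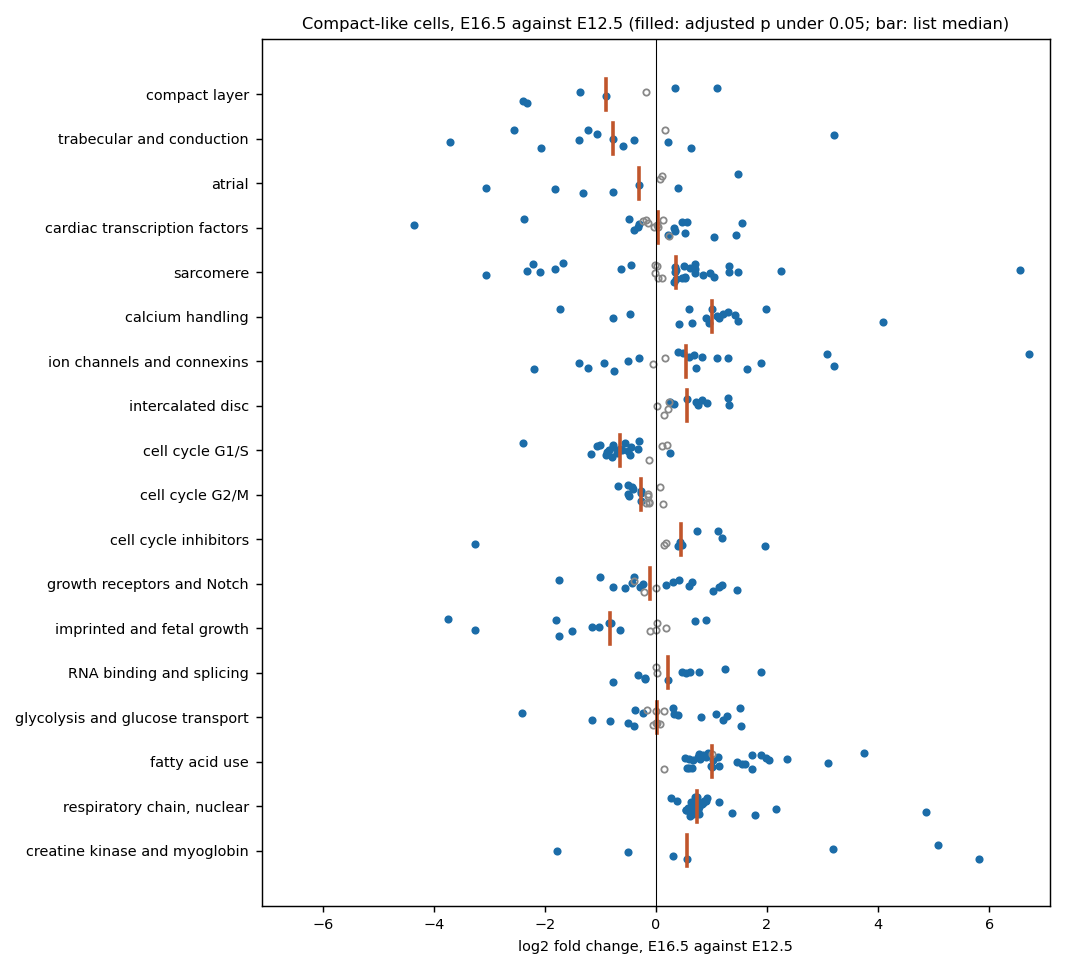
Log2 fold change from E12.5 to E16.5 (x axis) of each tested gene of 18 lists (y axis) in compact-like cells. Filled circles passed an adjusted p of 0.05 (edgeR), open circles did not, and bars are list medians. All 34 respiratory chain genes and 28 of 30 fatty acid genes were filled to the right, and 19 of 23 G1/S genes were filled to the left.

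A second question is whether compact-like cells changed differently from ventricular cells of high Nppa in the same libraries. The difference of the E12.5 to E16.5 change was tested with the library as a block over 12336 genes. The change was higher in compact-like cells for 1070 genes (8.67%) and lower for 889 (7.21%). Which direction held more genes depended on the setting, with 924 higher and 1096 lower when mitochondrial genes were left out of the sums, 291 and 347 under the mitochondrial ceilings of the study, and 911 and 1078 without E14.5 replicate 1. DESeq2 called 690 in all, and without E12.5 replicate 2 the test called 1080. High-Nppa cells were defined by Nppa and compact-like cells by Nppa and Hey2, so differences in level between them are descriptions.

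With no mitochondrial ceiling and no thinning, most genes of fatty acid use and of the respiratory chain gained more in compact-like cells. Of 30 fatty acid genes, the change was higher in compact-like cells for 21 and lower for 0 (median difference 0.43), and of 34 respiratory chain genes, for 29 and 0 (median 0.29). Of all genes tested, the change was higher in compact-like cells for 8.67% and lower for 7.21%. These counts are without the mitochondrial ceilings of the study and without thinning. Over all genes, 638 differences were called under the ceilings (291 higher and 347 lower) and 119 with thinning, in place of 1959. Median mitochondrial UMIs at E12.5 were 5.97 and 6.33% in compact-like cells and 7.96 and 8.26% in high-Nppa cells. At E16.5 they were 10.7 and 10.9% against 10.1 and 11.2%. The part of this in the class difference was not tested. Cox8b was at 105 and 218 CPM in high-Nppa cells at E12.5 and 850 and 851 at E16.5, so that compact-like cells stood at 0.283 and 0.220 times their level at E12.5 and at 1.17 and 1.19 times at E16.5. The difference of its changes was 2.32 ± 0.08 (adjusted p = 2.4e-25). Cox7a1 went from 0.639 and 0.622 times the high-Nppa level to 1.15 and 1.28 times, and Gja1 from 0.455 and 0.431 times to 0.996 and 0.885 times. Of 13 intercalated disc genes, the change was higher in compact-like cells for 8 and lower for 0. Casq2, at 0.250 and 0.217 times the high-Nppa level at E12.5, reached 0.585 and 0.531 times at E16.5.

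For other groups the change was lower in compact-like cells. Of 23 genes of glycolysis and glucose transport, the change was lower for 14 and higher for 3 (median -0.37). For the counts of this paragraph, the shares over all genes tested are 7.21% lower and 8.67% higher. Slc2a1 was 2.37 and 2.66 times the high-Nppa level at E12.5 and 0.918 and 0.956 times at E16.5. Bnip3, a mitochondrial protein that low oxygen induces, went from 2.65 and 2.46 times to 1.02 and 1.01 times. Of 16 genes of G2 and mitosis, the change was lower for 14 and higher for 0 (median -0.51). Under the mitochondrial ceilings of the study 3 of these 16 were called, and in cells thinned to 2000 UMIs 0 were called. Tnnt1 and Kcne1 also approached the high-Nppa level, with differences of -0.78 ± 0.10 and -1.12 ± 0.08.

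Trabecular and atrial genes that differed more often had the lower change in compact-like cells. Of 13 genes of trabecular and conduction muscle, the change was higher in compact-like cells for 2, Nppb and Cited1, and lower for 7 (median -0.69), and of 10 atrial genes, for 1 and 3 (median -0.54). Of all genes tested it was higher for 8.67% and lower for 7.21%. Myl7 was at 4823 and 4338 CPM in high-Nppa cells at E12.5, below the compact-like level, and at 1791 and 1528 at E16.5, above it (difference -1.72 ± 0.05). Myl4 went from 0.702 and 0.705 times the high-Nppa level to 0.418 and 0.404 times. Cited1, at 2130 and 1992 CPM in high-Nppa cells at E12.5 and 475 and 526 at E16.5, fell less in compact-like cells (difference 1.33 ± 0.06), so that the classes drew closer. Id2 went from 3.35 and 2.83 times the high-Nppa level to 0.793 and 0.803 times, and Gpx3 from 0.679 and 0.646 times to 0.250 and 0.258 times. Cox4i2, a form of a cytochrome c oxidase subunit that low oxygen induces, went from 36.2 and 38.8 to 2.82 and 3.47 CPM in compact-like cells while high-Nppa cells held 2.60 and 4.33 and then 7.62 and 15.2 CPM. Free RNA could account for up to 54.2% of its compact-like level in a library.

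**Figure D4:**
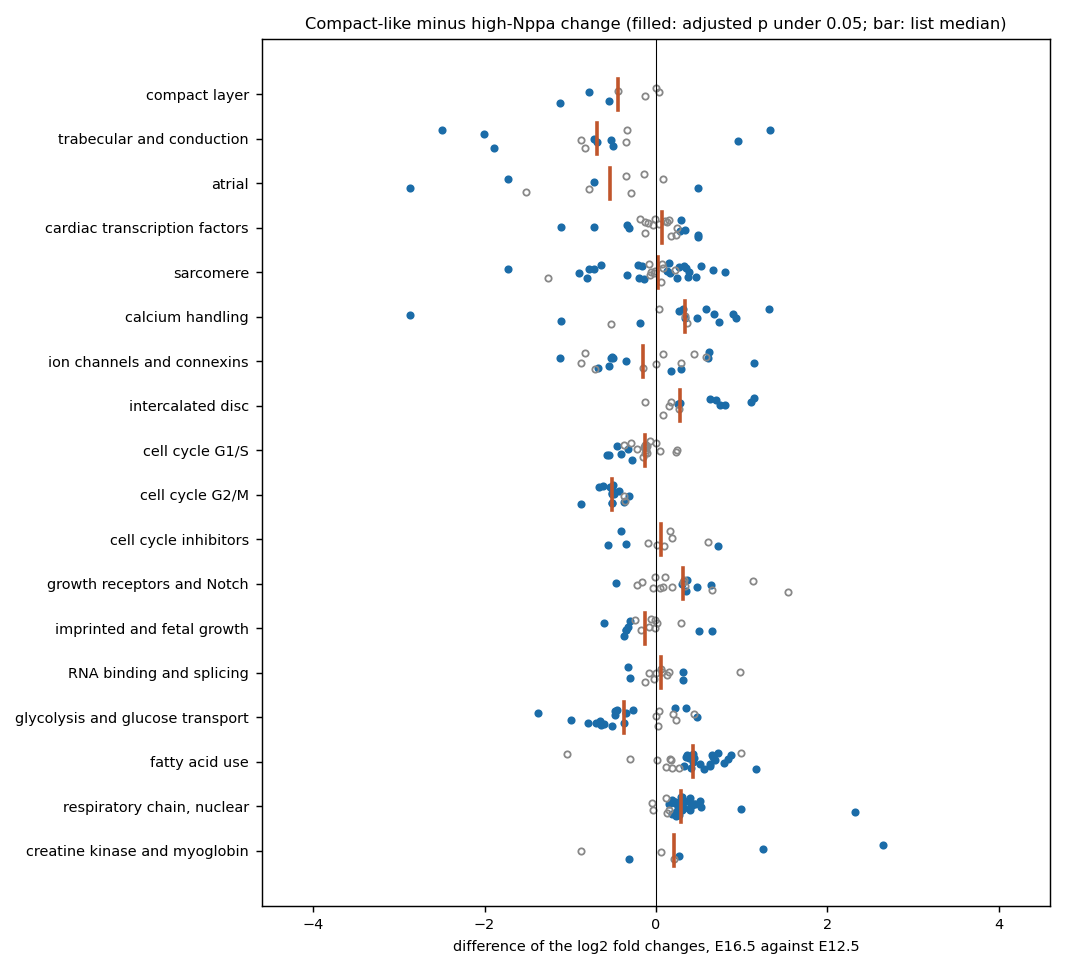
Difference between compact-like and high-Nppa cells in the log2 fold change from E12.5 to E16.5 (x axis) for each tested gene of 18 lists (y axis). Filled circles passed an adjusted p of 0.05 (edgeR), open circles did not, and bars are list medians. Respiratory chain and fatty acid genes lay mostly to the right, and glycolysis and G2/M genes mostly to the left.

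The last question is how the low-Nppa, Hey2-positive cells of P3 differ from compact-like cells of E16.5. With 1 P3 sample there is no test, levels have exact Poisson intervals that cover counting error only, and a gene is named where both wells lay beyond both E16.5 libraries. Because mitochondrial UMIs took up a larger share at P3, folds are given per nuclear UMI. On that scale, of 7550 genes at 10 CPM or more, 3404 had both wells above both libraries (45.1%) and 1784 had both below (23.6%). On the scale of all UMIs most of these genes that lay beyond the libraries were lower, with 2081 of 6932 above (30%) and 2597 below (37.5%). Among 1188 genes at 100 CPM or more of all UMIs, 49 lay at least 2-fold above (4.12%) and 62 at least 2-fold below (5.22%). Per nuclear UMI these counts were 92 and 40 of 1441 genes. Under the mitochondrial ceilings of the study, which few P3 cells met, they were 48 and 25 of 1210 genes of all UMIs.

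Genes of fatty acid use had the highest median ratio of the lists (log2 1.87 per nuclear UMI). Of 28 fatty acid genes at 10 CPM or more, 27 had both wells above both E16.5 libraries, 18 of them by 2-fold or more. Pdk4, a kinase that inhibits pyruvate dehydrogenase, stood at 8.01 and 7.88 CPM at E16.5 and at 195 and 71.5 in the P3 wells. Cd36 was 6.71-fold higher. Myh6, the adult myosin heavy chain of the mouse ventricle (chromosome 14, 54941921 to 54966927), stood at 442 and 461 CPM at E16.5 and 5695 and 5079 at P3, 14.1-fold higher. Myom2 was 10.8-fold higher. Of 34 sarcomere genes 17 lay above (50%) and 15 below (44.1%), 4 and 3 of them by 2-fold or more. Of all genes 45.1% lay above and 23.6% below, so the share below was larger in the sarcomere list. Ucp2 was 13-fold and the acyl-CoA thioesterases Acot1 and Acot2 9.09-fold and 6.19-fold higher. Ctgf, a matricellular growth factor, stood at 9.41 and 9.09 CPM and then 157 and 73.4. Fabp3-ps1, annotated as a processed pseudogene, was also among the largest rises, and its reads could come from Fabp3. Gm10076 and Gm10073, also among them, are annotated as a lincRNA and a protein-coding gene.

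Genes of G2 and mitosis and most imprinted and fetal growth genes stood lower. Myl4 was 10.3-fold lower per nuclear UMI. H19, the imprinted non-coding RNA, stood at 1116 and 1152 CPM at E16.5 and 176 and 76.3 at P3, 6.98-fold lower. All 16 G2/M genes had both wells below both libraries, 9 of them by 2-fold or more. Cenpf stood at 153 and 158 CPM at E16.5, 6.16 in well 1 (95% interval 4.86 to 7.71) and 43.5 in well 2 (38.7 to 48.7). Well 1 lay below well 2 in each of Cenpf, Ube2c, Birc5, Top2a, 2810417H13Rik, Arl6ip1, Cks1b, Lockd and Smc4. Of 23 glycolysis genes 12 had both wells below and 6 above, with Pgam1 at 281 and 269 CPM and then 28.0 and 99.1. Of 13 imprinted and fetal growth genes 10 lay below and 1 above, and of 21 transcription factors 16 lay above and 2 below. Of all UMIs, these factors gave 10 above and 4 below, and the glycolysis genes 6 above and 16 below.

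The wells themselves differed. Myh7 stood at 2562 CPM in well 1 and 636 in well 2, beside 5144 and 5200 at E16.5. Gja1 stood at 180 and 490 CPM and Hspa1b, an inducible heat shock protein, at 4.30 and 33.8. Without well 1 the counts of genes 2-fold above and below E16.5 were 84 and 138, and without well 2 they were 74 and 120.

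**Figure D5:**
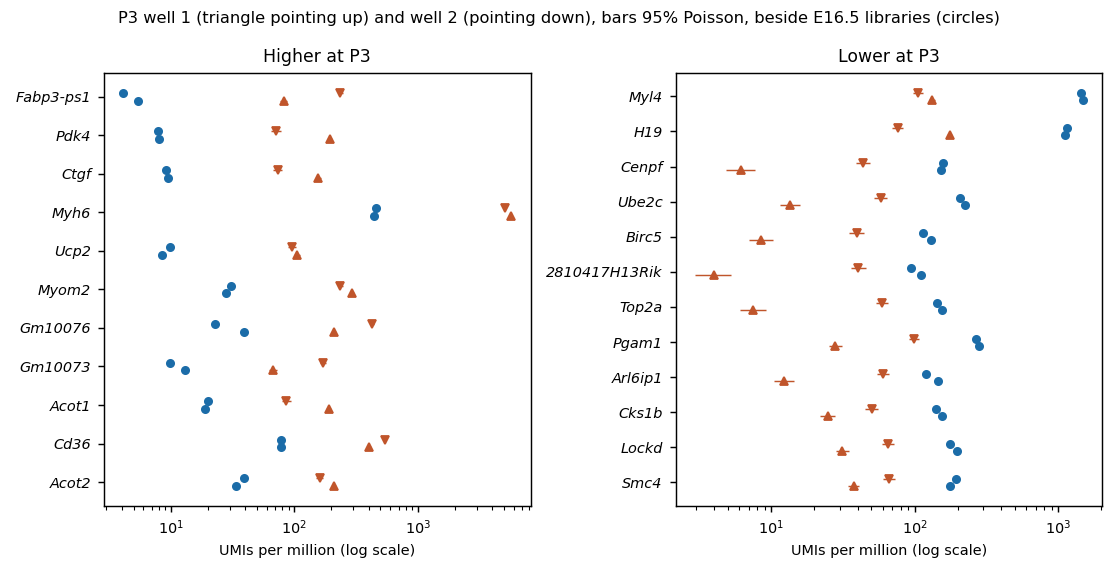
Levels (CPM of all UMIs, log scale, x axes) of genes with the largest ratio of P3 to E16.5 among those at 1 CPM or more at E16.5 (left) and the 12 with the smallest (right). Circles are the E16.5 libraries, triangles the P3 wells, and bars exact 95% Poisson intervals. Myh6 stood above 5000 in both wells and below 500 at E16.5, and Myl4 below 150 in both wells and above 1400 at E16.5.

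Markers of other cell types were counted in the cells that passed the rule. At E12.5, 97.1 and 96.3% of them held 3 or more UMIs of such markers or over 1% globin UMIs, then 78.0 and 73.3% by E14.5, 45.3 and 33.3% by E16.5 and 25.5 and 48.9% at P3. The summed levels of 8 endothelial markers were 28.3 to 50.4 CPM over the 8 sets, those of 7 macrophage markers 9.54 to 29.0 CPM, and those of 8 fibroblast markers 50.4 to 136 CPM in the embryo and 204 and 407 CPM at P3. In the stage test 6 fibroblast markers rose and 0 fell of 8, with Col1a1 from 5.86 and 7.32 to 24.5 and 18.5 CPM, 4 macrophage markers rose and 2 fell of 7, and 1 endothelial marker rose and 4 fell of 8. Of 6 mural markers tested, 3 rose and 2, Tagln and Cnn1, fell, 433 and 417 CPM for Tagln at E12.5 and 13.2 and 10.4 at E16.5, and all mural markers summed to 721 and 708 CPM at E12.5 and 74.1 and 68.4 at E16.5. The mural markers other than Tagln and Cnn1 summed to 3.02 to 34.8 CPM over the 8 sets. With cells of 6 or more UMIs of a list without Tagln, Cnn1, Krt19 and Tbx18, or over 5% globin, as the limit, the share over it was 2.92 to 10.8% over the 8 sets. Of 6 epicardial markers tested Krt19 fell and 0 rose, Krt19 from 62.5 and 53.6 to 3.28 and 2.90 CPM. Of 8 erythroid markers tested, 5 rose and 3 fell from E12.5 to E16.5, each by 2-fold or more. Erythroid transcripts summed to 978 to 6477 CPM, and globin UMIs in the cells of the 6 embryonic libraries were 3.12 to 12.3% of their level in barcodes of 1 to 100 UMIs. Taking that as the most that free RNA could contribute, it reached over 50% of the level for 0.477 to 2.33% of the called genes. The part of other cells in the stage differences was not tested.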

How the data were processed

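Single cells of dissected mouse hearts were captured on the 10x Genomics 3′ platform in 2 libraries each at E12.5, E14.5 and E16.5, and in 1 matrix of 2 records at P3. The authors deposited matrices of UMI counts per gene and barcode on mm10, and the counts were used as deposited. The embryonic matrices list 737280 barcodes each and are unfiltered, whereas the P3 matrix lists 6320 and 4644 barcodes in its wells, all with UMIs. The submitters' processing notes name Cell Ranger 2.1.1 and Seurat 3.1.1, while the matrix headers give 3.1.0 for the embryonic hearts and 3.0.0 for P3. The labels and the paper differ on the enzyme and the kit version, so neither is given here. Columns that could not be mapped to a sample numbered 0.

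Members and gene lists were chosen with earlier results of these data known. The rule was applied to each barcode without the mitochondrial ceilings of the study (7.5% at E12.5, 10% at E14.5, 15% at E16.5, 20% at P3). Counts were summed per library, because cells are not replicates. The 6 embryonic sums were tested with edgeR 4.0.16 (filterByExpr, TMM, quasi-likelihood test, Benjamini-Hochberg adjustment over all genes, threshold 0.05) with 3 residual degrees of freedom. Genes of the rule and mitochondrial genes were left out of tests. The difference between classes was tested over 12 sums with the library as a block. Levels are counts per 1000000 UMIs (CPM) without TMM, whereas log2 changes use TMM, so the 2 can differ slightly. Both fits were tested on simulated data in which few genes changed. Every simulated gene had the same spread, and no library or class effect was simulated, so the rates need not hold for the real libraries. In 12880 genes, 89% of simulated 2-fold stage changes were recovered with 3.571% false calls, and in 12210 genes, 53% of 2-fold differences between classes with 4.43% false calls.

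For each stage contrast the text names the 10 genes a direction with the largest change among those called, at 50 CPM or more in the higher stage, with libraries that did not overlap. From each list it takes up to 5 called members and 2 that were not called, for the class difference the 10 smallest p, and for P3 up to 12 genes a direction at 100 CPM or more. The text describes a selection of these. Some genes that met these rules are not reported here. Other genes named as list members or for P3 wells were chosen after their values were seen. Doublets were not removed in the reported values, and removal of the highest Scrublet scores (0.8% per 1000 cells) was an alternative. Replicate numbers did not pair libraries across stages (correlations of deviations -0.006, 0.067 and -0.007). Python 3.11.15, scanpy 1.11.5, scipy 1.17.1, R 4.3.3 and DESeq2 1.42.0 were used. Promoters are from RefSeq on GRCm38.p6 and gene positions from GENCODE on GRCm38.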

Additional observations from a re-analysis of the deposited data

Results flagged for a closer look

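The change from E12.5 to E16.5 differed between compact-like and high-Nppa cells for 1959 genes by the test of class by stage. The 10 genes with the smallest p in that test are listed here for this reason. Relative to high-Nppa cells, the log2 change in compact-like cells was higher by 2.32 for Cox8b, 1.33 for Cited1, 1.14 for Gja1 and 1.00 for Cox7a1. It differed by -1.72 for Myl7, -1.89 for Id2, -1.33 for Gpx3, -1.27 for Bnip3, -0.72 for Myl4 and -5.15 for Cox4i2. The classes were cut by Nppa and Hey2 at each stage, so the cells compared may not be the same population at both stages, and this was not tested.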

How the results depend on the processing

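Counts of called genes in the stage contrasts moved most under 2 settings. Thinning cells to 2000 UMIs before the rule left 96 and 135 cells at E12.5 and 5985 genes tested, so depth and membership changed together. Removal of cells holding 3 or more UMIs of other cell markers left 16 and 29 cells at E12.5. For E14.5 against E12.5 the 4208 calls became 2537 with DESeq2, 91 with cells thinned to 2000 UMIs and 234 with other markers removed. For E16.5 against E14.5 the 5183 calls became 3221, 566 and 2972 in the same order. For E16.5 against E12.5 the 7547 calls became 890 with thinning and 1253 with other markers removed. A shorter marker list, added after seeing the data, gave 4310, 5379 and 7606 calls. The 1959 differences between classes became 690 with DESeq2, 638 under the mitochondrial ceilings of the study and 119 with thinning. For these differences removal of cells with other markers was run with the shorter list alone, which gave 2049. Leaving out 1 library gave 2627 to 4222, 3389 to 5670, 6598 to 7510 and 1080 to 2011 calls in the 4 comparisons. The lowest values came without E14.5 replicate 1 in the first pair, and without E12.5 replicate 2 in the last, where leaving out E16.5 replicate 1 gave 1109. The share of called genes that were higher moved by over 10 percentage points with thinning, from 54.2 to 67.0%, 51.4 to 65.7% and 51.6 to 65.1% in the stage contrasts and from 54.6 to 73.1% in the class difference. It also moved from 51.6 to 62.3% for E16.5 against E12.5 with other markers removed, and from 54.6 to 42.9% in the class difference without E12.5 replicate 2. The replicate block gave 4487, 5447 and 7755 calls for the stage contrasts. The replicate numbers are only shared labels, and the class difference already has the library as a block.

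The ratio of the compact-like share, 1.45 from E12.5 to E16.5, became 1.25 under the ceilings, 1.79 with Nppa below 100 CPM, 1.87 with thinning and 2.77 with other markers removed. The ratio of the G2/M share, 0.536, became 0.570 with 4 genes required, 0.473 without thinning, 0.605 with Hey2 not required, 0.477 with 2 or more Hey2 UMIs, 0.704 with the rule applied after thinning and 0.674 with other markers removed. Of the named genes, the E16.5 against E12.5 change reversed in sign with other markers removed for Ccnb2 (0.054), Cdk1 (0.62), Bub1b (1.53), Ccnb1 (1.94) and Junb (-0.17), and with thinning for Ccnb1 (0.10). Only Ccnb1 with other markers removed passed the test in the new direction (adjusted p = 0.0010, edgeR). The cause was not tested. Over the 152 called results of named genes, 2147 values under other settings kept the call, 38 lost it with the same direction and 6 reversed. Named genes were mostly picked for large changes, and genes not tested in a setting were left out of this count. Of all genes called for E16.5 against E12.5, 11.6% were called again with thinning. With other markers removed 15.8% were, 9 of these genes in the opposite direction. Intervals and the limits on depth cover counting error only.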

Other observations

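Genes of the sex chromosomes differed between stages in the cells that passed the rule and were chosen after their values were seen. Xist, the RNA of the inactive X chromosome, stood at 72.1 and 75.8 CPM at E12.5, 230 and 235 by E14.5, then 460 and 385 by E16.5 and finally 317 and 460 at P3. Ddx3y of the Y chromosome stood at 23.4 and 23.3 CPM at E12.5, 22.5 and 21.1 by E14.5, then 11 and 9.99 by E16.5 and finally 14.3 and 21.3 at P3. Eif2s3y went from 31.4 and 33.4 CPM at E12.5 to 13.2 and 12.3 at E16.5. The sex of the embryos in a library is not given in the sources used here, and its part in the stage differences was not tested.

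The summed level of the 16 G2/M genes was 66.0 CPM in P3 well 1 and 438 CPM in P3 well 2, beside 1206 and 1118 CPM at E16.5.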
